A study of Mus musculus with 3 samples.

Results

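The Hox genes examined here were 38 genes of the 4 mouse Hox clusters, a list of genes named Hox followed by a cluster letter and a number, chosen by name whatever their values. The array named 27670 genes in all. Of the 38, 10 belong to Hox A, 10 to Hox B, 9 to Hox C and 9 to Hox D. A probe by the member's name was found for 37, all but Hoxc11, and these 37 genes had 48 probes. The label fits these members, which came from all 4 clusters and from paralog numbers 1 to 13.

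Each of 3 two-colour Agilent arrays compared otic placodal ectoderm of Fgf3-/-;Fgf10-/- embryos (double null) with that of Fgf3+/-;Fgf10+/- embryos (double heterozygote), at 4 to 8 somites. The placode is the patch of head ectoderm that gives rise to the inner ear, and the products of Fgf3 and Fgf10 are fibroblast growth factors that reach it from neighbouring tissues. Every pool held 10 microdissected placodes, there were 3 pools of each genotype, and each array carried 1 pool of each. The controls also carried a null allele of both genes, no wild-type placode was compared, and embryos were not treated. Double heterozygote RNA always carried Cy3 and double null RNA always Cy5, so that dye and genotype cannot be told apart for any value below. Ratios are given as log2 of double null over double heterozygote, and in bulk tissue fewer cells of a type and less RNA per cell cannot be told apart.

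Hox genes encode homeodomain transcription factors that set position along the body axis. In each cluster the genes lie in the order in which they come on, so that low paralog numbers reach far forward, into the hindbrain and its neural crest, and high numbers stay in the trunk and tail. The hindbrain, which lies against the otic placode, is divided into segments by genes such as Hoxb1, Hoxa2, Hoxb2 and the paralogs of number 3, under control of retinoic acid and of factors such as Egr2. Hox proteins bind DNA with Pbx, Meis and Pknox cofactors, and Polycomb and trithorax proteins keep the clusters silent or open.

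The first 30 bases of the probes of Hoxb1 and Hoxc5, the members with the lowest and the highest log2 ratio, are shown because the results turn on these probes. The sequences are those of the deposited files, 5′ to 3′.
Hoxb1: ttgaattgaacttcctaagtaactgggctt
Hoxc5: gtgtgtgtctaagttacccagacttttcta

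The Hoxb1 promoter was read for a Pbx-Hox motif because Hoxb1 is known to act on its own gene together with Pbx proteins. The 160 bases from 210 to 51 upstream of the Hoxb1 start, at chr11:96365548-96365707 on the plus strand of GRCm38.p6 in the RefSeq promoter table, held 1 match to TGATNNAT, in capitals.
Hoxb1 promoter: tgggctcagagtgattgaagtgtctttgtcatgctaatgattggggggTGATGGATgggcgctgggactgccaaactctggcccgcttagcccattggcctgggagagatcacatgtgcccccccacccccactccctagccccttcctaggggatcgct
Searched on both strands, the motif was found in 4.91% of all 32851 promoter windows of this length (1613 windows) and in 3 of 24 windows that belonged to 22 Hox members. A match describes the letters and shows no binding.

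Detection followed the order of the clusters, with exceptions. All 11 members of paralog groups 1 to 4 had a probe well above background, by the scanner software's mark, in every pool of at least 1 genotype, which was the condition for testing a probe. In groups 6 to 13 only 2 of 24 members met it, Hoxb6 and Hoxa9, and of the 3 members of group 5 only Hoxc5 did. By cluster, 4 of 10 Hox A members met it, 5 of 10 Hox B members, 2 of 9 Hox C members and 3 of 9 Hox D members. In all, 14 genes with 16 probes were tested. Of the 48 Hox probes, 15 (31.2%) had this mark in all 6 pools, against 59.4% of all 41174 probes.

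The genes detected in both channels on every array were Hoxa2, Hoxa3, Hoxa4, Hoxa9, Hoxb1, Hoxb2, Hoxb3, Hoxb6, Hoxc4, Hoxc5, Hoxd1, Hoxd3 and Hoxd4. Hoxb4 was the member just inside the condition, above background in all 3 double null pools and in 2 of 3 double heterozygote pools. Just outside it were Hoxa5, above background in 2 double null pools and 1 double heterozygote pool, Hoxb9 and Hoxd13 with the same counts, and Hoxd12 with 2 of each genotype. Hoxc10 was above background in 1 pool of each genotype and Hoxb7 in 1 double null pool. The 17 other members with a probe were above background on no array: Hoxa6, Hoxa7, Hoxa10, Hoxa11, Hoxa13, Hoxb5, Hoxb8, Hoxb13, Hoxc6, Hoxc8, Hoxc9, Hoxc12, Hoxc13, Hoxd8, Hoxd9, Hoxd10 and Hoxd11. Hoxb5 thus lay undetected between the detected Hoxb4 and Hoxb6. The 26 probes that passed on no array had a median spot intensity of 48.9 in Cy3, where the median local background was 44.0, and of 68.4 in Cy5, where it was 56.5. A dim spot gives only a bound, and low transcript and a poor probe were not told apart.

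**Figure D1:**
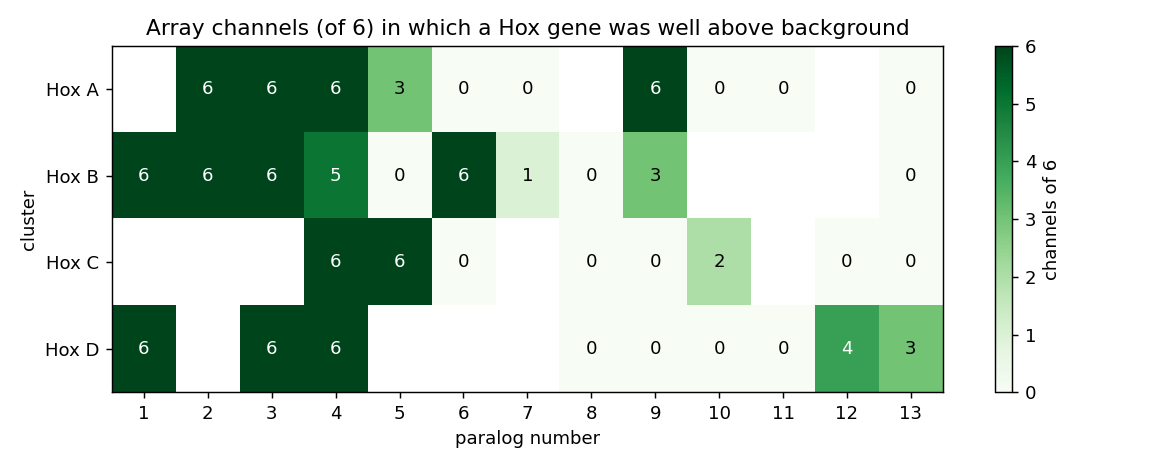
Grid of the 4 Hox clusters (rows) by paralog number (columns), where each number and shade is the count of array channels, of 6 (3 arrays, both genotypes), in which the gene's best probe was well above background. Blank cells hold no listed member or no probe by its name. Cells of groups 1 to 4 hold 5 or 6, while beyond them 6 is reached by Hoxc5, Hoxb6 and Hoxa9.

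For some members detection differed between 2 probes of the gene, and the reason was not tested. Of 11 members with 2 probes, both were tested for Hoxa3 and Hoxb2, 1 of 2 for Hoxa4, Hoxb6 and Hoxd3, and none for the other 6. The second Hoxd3 probe read 55.9, 57.9 and 61.1 in the double heterozygote pools, close to its local background, where the first read 1613, 957 and 1661. Single-probe members that were not detected therefore have no second reading.

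No Hox probe passed the test between genotypes. With limma and Benjamini-Hochberg adjustment over all 25506 tested probes, 0 of 16 Hox probes had an adjusted p under 0.05, where 1.49% of all tested probes did (72 lower in the double null, 0.282%, and 307 higher, 1.2%). Of the 23629 tested probes within the range of mean log2 intensity of the Hox probes, 6.77 to 14.43, 148 (0.626%) did. At an unadjusted limma p under 0.05 there were 4 of 16 Hox probes, 2 lower (Hoxb1 and Hoxb6) and 2 higher (Hoxc5 and Hoxd1), where 20.2% of all tested probes had such a p (8.35% lower and 11.9% higher). One sign on all 3 arrays was seen for 6 Hox probes, and for 43.8% of all tested probes. The median log2 ratio of the 16 was -0.039, with array medians of -0.11, 0.075 and -0.13, and that of all tested probes was 0.011. Other settings brought at most 2 Hox probes past the threshold, Hoxc5 or Hoxb1, with 1 exception. Centring each array on its median in place of loess brought 9, all higher, in a fit where the median of all probes was 0.33.

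**Figure D2:**
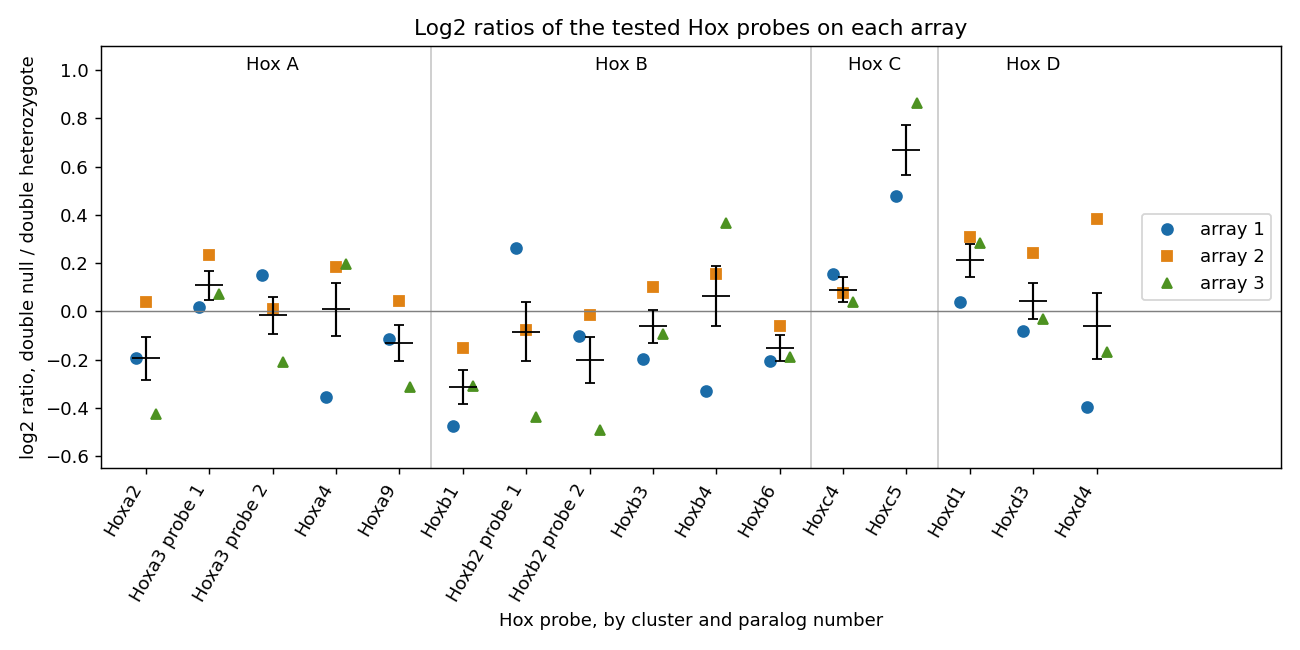
Log2 ratio (double null over double heterozygote) of each tested Hox probe on arrays 1, 2 and 3 (symbols), with the mean and its limma standard error (black bars), by cluster and paralog number. Probe 1 is the brighter probe of Hoxa3 and the dimmer probe of Hoxb2. Hoxb1 lies below 0 and Hoxd1 above 0 on all 3 arrays, Hoxc5 has values on 2 arrays only, and 6 of the other 15 probes have 1 sign on all 3 arrays, Hoxb1 and Hoxd1 among them.

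Of the paralogs of number 1, Hoxb1 was the lower in the double null. Hoxb1, which gives the hindbrain segment just ahead of the otic region its identity, has its probe at chr11:96476175-96476235 of mm7, the build of the probe positions in the files. Its normalised log2 levels were 11.17, 10.95 and 11.23 in the double heterozygote pools and 10.70, 10.80 and 10.92 in the double null pools. The groups did not overlap, but 10.95 and 10.92 lay close together. Levels were normalised within arrays only, and how many of all tested probes were so separated was not counted. The log2 ratios on arrays 1, 2 and 3 were -0.48, -0.15 and -0.31, with a mean of -0.31 ± 0.071 (SE, n = 3), a fold of 0.805, limma unadjusted p = 0.00365 and adjusted p = 0.0947. This probe was printed 10 times on each array. The 10 spots of an array had an SD of 0.022, 0.019 and 0.031, while the 3 array means had an SD of 0.16. Array and pool cannot be told apart in the larger spread. The ratio was below 0 under 18 of 19 alternative settings, with adjusted p between 0.0368 and 0.244, and was 0.12 with median centring. Settings that changed only the filter, the variance prior, the fit of channels or the threshold left the ratio as it was. Its sign could not change under those settings.

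Hoxd1, a paralog with a known role in sensory neurons, went the other way. Its probe, at chr2:74608659-74608718 of mm7, had normalised log2 levels of 7.06, 6.75 and 6.93 in the double heterozygote and 7.10, 7.06 and 7.21 in the double null. The highest double heterozygote and the lowest double null level were equal as rounded. The log2 ratios were 0.039, 0.31 and 0.28, with a mean of 0.21 ± 0.068 (SE, n = 3), a fold of 1.16, limma unadjusted p = 0.0185 and adjusted p = 0.169. The spots were dim, at 69.7 to 83.8 in Cy3 against a local background of 43.5 to 47. The difference between Hoxd1 and Hoxb1 was not tested.

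Paralogs of number 2 had their lowest ratios on array 3. Hoxa2, which patterns the second arch crest and the front of the hindbrain, had log2 ratios of -0.20, 0.037 and -0.43, with a mean of -0.20 ± 0.088 (SE, n = 3) and limma adjusted p = 0.276. Hoxb2, a target of Egr2, was read by 2 probes. The brighter, at chr11:96462847-96462906 of mm7, gave -0.10, -0.013 and -0.49, with a mean of -0.20 ± 0.094 (SE, n = 3) and limma adjusted p = 0.286. The dimmer, at chr11:96459585-96459644, gave 0.26, -0.076 and -0.44, with a mean of -0.084 ± 0.12 and limma adjusted p = 0.732. The 2 Hoxb2 probes thus had opposite signs on array 1. The dimmer is the 1 of 48 Hox probes whose listed strand is opposite to that of its cluster, and its start lies 3262 bases from that of the other, more than the RefSeq length of the gene, 2389 bases. Its value is therefore uncertain as a reading of Hoxb2.

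Paralogs of number 3, which act in the hindbrain segments beside and behind the otic region, had mean log2 ratios within 0.11 of 0. Hoxb3 had log2 ratios of -0.20, 0.10 and -0.093, with a mean of -0.062 ± 0.068 (SE, n = 3) and limma adjusted p = 0.645. Hoxd3 had -0.084, 0.24 and -0.033, with a mean of 0.042 ± 0.074 and limma adjusted p = 0.783. The first Hoxa3 probe gave 0.017, 0.24 and 0.070, with a mean of 0.11 ± 0.060 and limma adjusted p = 0.362. The second, 666 bases away, gave 0.15, 0.0091 and -0.21, with a mean of -0.017 ± 0.075 and limma adjusted p = 0.922. Array 3 thus read Hoxa3 above 0 with 1 probe and below 0 with the other, and a sign for Hoxa3 rests on the probe.

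Members of number 4, markers of the hind part of the hindbrain and the neck, had ratios that changed sign between arrays, apart from Hoxc4. Hoxa4 had log2 ratios of -0.36, 0.18 and 0.20, with a mean of 0.0077 ± 0.11 (SE, n = 3) and limma adjusted p = 0.978. Hoxb4 had -0.33, 0.16 and 0.36, with a mean of 0.064 ± 0.12 and limma adjusted p = 0.803. Hoxd4 had -0.40, 0.38 and -0.17, with a mean of -0.060 ± 0.14 and limma adjusted p = 0.835. All 3 were below 0 on array 1 and above 0 on array 2. Hoxa5 was not tested, and its spots, above background in 3 of 6 pools, give no firm ratio. Hoxc4 was above 0 on every array, at 0.15, 0.075 and 0.038, with a mean of 0.089 ± 0.052 and limma adjusted p = 0.377. Cdx2, a regulator of trunk Hox genes, was also lowest on array 1, with log2 ratios of -0.66, -0.05 and 0.30 (limma adjusted p = 0.679), and its part in these values was not tested.

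The largest Hox ratio was that of Hoxc5, a trunk paralog known from the neck and forelimb level. Its probe, at chr15:103002694-103002753 of mm7, had spot intensities of 151.5, 354 and 515 in the double heterozygote pools and 525, 1491 and 2112 in the double null pools. Both genotypes were lowest on array 1 and highest on array 3. Normalised log2 levels were 8.04 and 9.63 in the double heterozygote and 8.52 and 10.49 in the double null on arrays 1 and 3, so the groups overlapped. The log2 ratios were 0.48 on array 1 and 0.86 on array 3, while the spot on array 2 carried a non-uniformity mark and was left out, so the mean of 0.67 ± 0.10 (SE) rests on n = 2, with a fold of 1.59, limma unadjusted p = 0.000893 and adjusted p = 0.053. With the marked spot kept the mean was 0.75 and the limma adjusted p = 0.0138. Over 15 alternative settings the ratio stayed above 0, at 0.65 to 0.93, with adjusted p from 0.00141 to 0.207. The 0.93 and the 0.00141 came from median centring, where 76.4% of all probes passed. Settings of the filter, the variance prior or the threshold, and the fit without array 2, left the ratio as it was. Its sign could not change under those settings.

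The pools of one genotype also differed among themselves in Hoxc5. The brightest double heterozygote pool was 3.40 times the dimmest in spot intensity before normalisation, and the brightest double null pool 4.02 times. The other 15 tested Hox probes had spreads of 1.13 to 2.18 and 1.07 to 1.59. Among all 25506 tested probes, 13 (0.051%) had spreads at least as large in both genotypes. Hoxc4, the next gene of the cluster, had 1.47 and 1.17. A spread shared by both channels of an array can lie in the array or in the pools, and which was not tested.

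**Figure D3:**
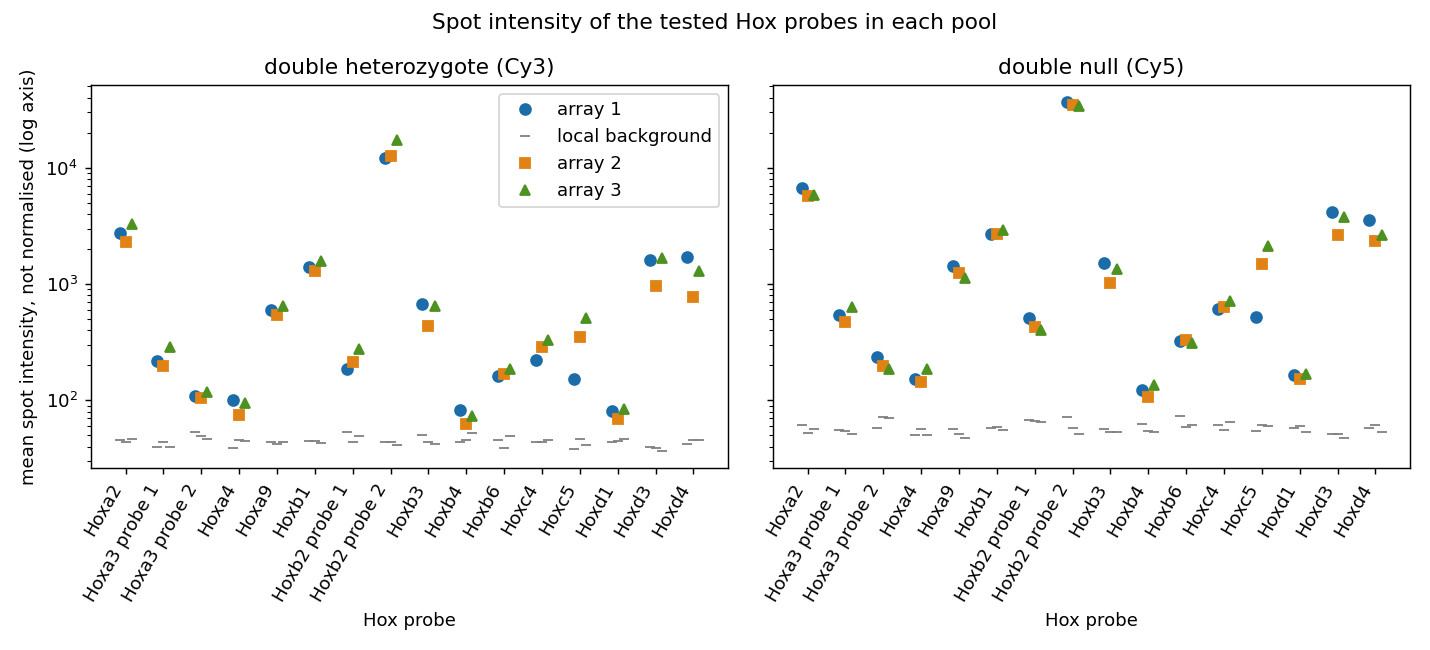
Mean spot intensity, not normalised, of the tested Hox probes in the double heterozygote pools (Cy3, left) and the double null pools (Cy5, right) on a log axis, with symbols for arrays 1, 2 and 3 and grey dashes for the local background. Levels can be compared within a probe and a dye only. Hoxc5 ranges from 151.5 to 515 in the double heterozygote and from 525 to 2112 in the double null, the widest spread among the 16 probes in both panels.

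Beyond group 5, only Hoxb6 and Hoxa9 could be tested. Hoxb6, a trunk gene, has its probe at chr11:96408006-96408065 of mm7 and had spot intensities of 161, 167 and 187 in the double heterozygote and 323, 330 and 309 in the double null. Its log2 ratios were -0.20, -0.062 and -0.19, with a mean of -0.15 ± 0.054 (SE, n = 3), a fold of 0.900, limma unadjusted p = 0.0279 and adjusted p = 0.195. Normalised levels of 8.01 to 8.06 in the double heterozygote lay above those of 7.81 to 7.97 in the double null. How many of all tested probes were so separated was not counted. The ratio was below 0 under all 19 alternatives, at -0.25 to -0.05. Those that changed only the filter, the variance prior, the fit of channels or the threshold left it as it was, so its sign could not change there. The second Hoxb6 probe, 2282 bases away, was not well above background on any array. Hoxa9, a gene of the tail end of Hox A, had log2 ratios of -0.12, 0.043 and -0.31, with a mean of -0.13 ± 0.075 (SE, n = 3) and limma adjusted p = 0.375. Whether its probe also reads other Hox transcripts was not tested.

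By cluster, the median log2 ratio was -0.017 over 5 Hox A probes, -0.12 over 6 Hox B probes, 0.38 over 2 Hox C probes and 0.042 over 3 Hox D probes. Of the Hox B probes, 5 of 6 were below 0, all but Hoxb4. Both Hoxb2 probes are among these, the dimmer and uncertain one included. Of all 25506 tested probes, 11740 had a mean below 0. The medians of groups 1 to 3 were -0.084, 0.037 and -0.21 on arrays 1, 2 and 3, and those of groups 4 and 5 were -0.33, 0.17 and 0.20. On array 3 Hoxb6 and Hoxa9, the 2 tested members beyond group 5, were below 0 like the median of groups 1 to 3, and groups 4 and 5 had a median above 0. Members did not all follow their group there. Hoxd1 (0.28) and the first Hoxa3 probe (0.070) were above 0, and Hoxd4 (-0.17) was below 0. Whether clusters or groups differ from each other was not tested.

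None of the 9 tested Hox cofactors, of 9 listed, passed the test, and their median log2 ratio was -0.05. Meis2, the brightest, had log2 ratios of 0.081, 0.24 and 0.12 (limma adjusted p = 0.211), and Pbx2, the next, had -0.22, -0.18 and -0.11 (limma adjusted p = 0.153). Of 22 Polycomb and trithorax genes, all tested, none passed either, with a median of -0.0042. The brightest were Gmnn, which encodes the Polycomb-binding protein geminin and had a log2 ratio of 0.16 ± 0.059 (SE, n = 3, limma adjusted p = 0.212), and Ash2l, a trithorax subunit at -0.15 ± 0.048 (SE, n = 3, limma adjusted p = 0.164). Of the ParaHox genes, relatives of the Hox genes outside the clusters, 3 of 6 were tested and none passed. Gsx1 had -0.092, -0.057 and -0.041 (limma adjusted p = 0.506), and Cdx2 is given above.

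Among 16 listed regulators of hindbrain and trunk Hox genes, 13 were tested, 1 fell and none rose. Of all tested probes, 0.282% passed as lower and 1.2% as higher. Cyp26a1, an enzyme that breaks down retinoic acid, fell by 0.35 on the log2 scale in the double null, with ratios of -0.35, -0.37 and -0.34 on the 3 arrays (SE 0.048, n = 3, limma adjusted p = 0.0242). This call was lost when any 1 array was left out, at limma adjusted p of 0.0618, 0.099 and 0.135 without array 1, 2 and 3, and 8 of 18 alternatives kept it. The ratio was below 0 under 17 of the 18 and 0.047 with median centring (limma adjusted p = 0.427), where the median of all probes was 0.33. Settings of the filter, the variance prior or the fit of channels left this ratio as it was, so its sign could not change there. Aldh1a2, which makes retinoic acid, had log2 ratios of 0.018, 0.33 and 0.41, with a mean of 0.25 ± 0.082 (SE, n = 3) and limma adjusted p = 0.171. Egr2, the direct activator of Hoxb2, had -0.26, -0.20 and -0.46, with a mean of -0.31 ± 0.065 and limma adjusted p = 0.0832.

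Of 18 genes listed as neighbours of the clusters, 13 were tested and 1 passed, where 1.49% of all tested probes did. Atp5g3, an ATP synthase subunit near Hox D, rose, with log2 ratios of 0.44, 0.56 and 0.31 and a mean of 0.44 ± 0.062 (SE, n = 3, limma adjusted p = 0.0274). It was among the brightest probes, at a mean log2 intensity of 16.39, and the call was lost without any 1 array, at limma adjusted p of 0.0547 to 0.0911. The ratio itself was 0.079 with loess of span 0.1 on probes above background (limma adjusted p = 0.522) and 0.081 with the scanner's processed signals (0.538). Evx1 and Evx2, homeobox genes at the ends of Hox A and Hox D, had mean log2 ratios of -0.053 and 0.044 (limma adjusted p = 0.723 and 0.738).

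**Figure D4:**
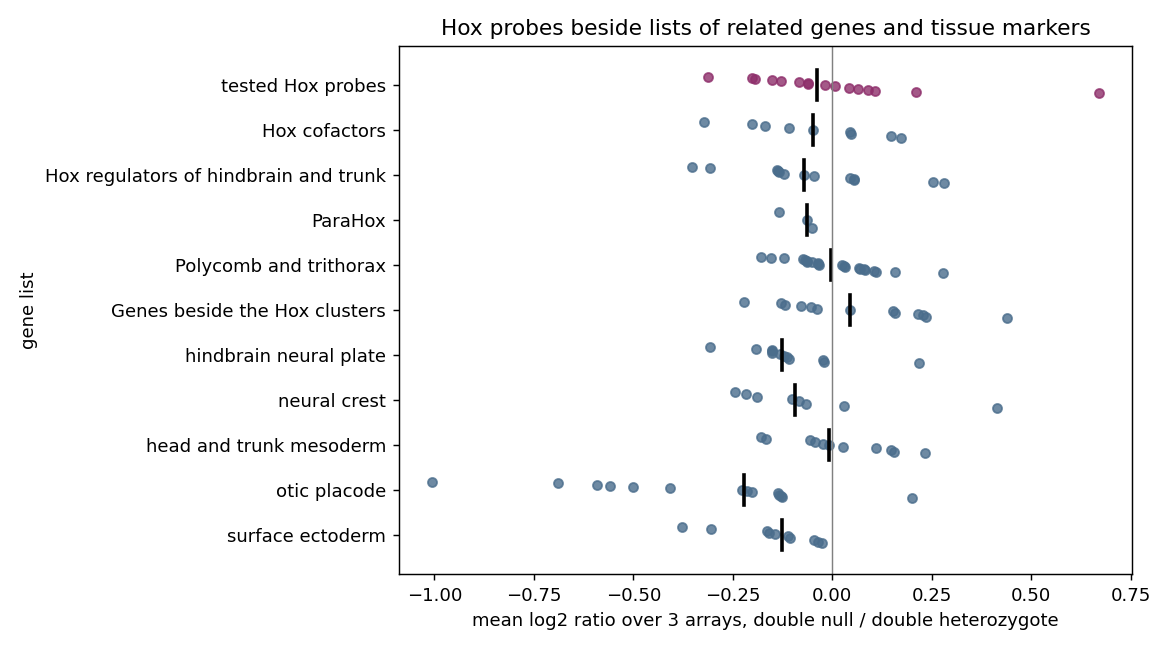
Mean log2 ratio over the arrays (double null over double heterozygote) of the 16 tested Hox probes and of the tested genes of 5 lists of related genes and 5 lists of tissue markers, 1 point a probe or gene, with the list median as a black bar. The endoderm list (median -0.16) and the blood and endothelium list (median 0.51) are not drawn. The Hox median of -0.039 lies near 0, the hindbrain and surface ectoderm medians lie near -0.13, and the otic placode points reach down to -1.01.

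Placode dissection can carry hindbrain, crest and mesoderm, which express Hox genes themselves, so markers of these tissues were read on the same arrays. All 12 hindbrain neural plate markers were tested, none passed, and 11 of 12 had a mean below 0, where 11740 of all 25506 tested probes did. Their array medians were -0.17, -0.013 and -0.23. Their log2 summed levels on arrays 1, 2 and 3 were 16.57, 16.37 and 16.78 in the double heterozygote. In the double null they were 16.41, 16.33 and 16.51, lower on every array. Hoxb1, Hoxa2 and the brighter Hoxb2 probe had their value nearest to 0 on the same array 2. So did Hoxb6 (-0.062) and Hoxa9 (0.043), Fgf3 (-0.064) and the median of the surface ectoderm markers (-0.0081). The first Hoxa3 probe and Hoxd3, both at 0.24, and Hoxd1, at 0.31, were farthest from 0 on array 2. For 8 neural crest markers, all tested, none passed, and the array medians were -0.14, 0.069 and -0.27. Their log2 summed levels on arrays 1, 2 and 3 were 15.33, 14.97 and 15.51 in the double heterozygote. In the double null they were 15.08, 15.21 and 15.21, lower on arrays 1 and 3 and higher on array 2. For 11 head and trunk mesoderm markers, all tested, none passed, and the array medians were 0.16, -0.12 and -0.038. Their levels were 15.25, 15.20 and 15.22 in the double heterozygote. In the double null they were 15.25, 15.10 and 15.13, equal as rounded on array 1 and lower on arrays 2 and 3. The brightest members were Egr2 for hindbrain, given above, Crabp1 for crest at -0.30, 0.30 and -0.31 (limma adjusted p = 0.672), and Prrx2 for mesoderm at 0.013, 0.0017 and -0.087 (limma adjusted p = 0.821). No marker of these 3 lists was at background on every array, and the part of these tissues in the Hox values was not tested.

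The labelled tissue was checked with 16 otic placode markers, of which 14 were tested, 13 of them with a mean below 0. Of all 25506 tested probes, 11740 had a mean below 0. Pax2 was not well above background on any array, and Foxi3 had no probe by that name. Hmx2 fell by 0.59 on the log2 scale (limma adjusted p = 0.023) and Sox9 by 0.69 (limma adjusted p = 0.0475), and no otic marker rose. Of all tested probes, 0.282% passed as lower and 1.2% as higher. Sox9 was read by 3 probes, of which the other 2 gave -0.40 and -0.0041, and the Hmx2 call was lost without array 3 (limma adjusted p = 0.13) and that of Sox9 without array 1 or 3 (0.0682 and 0.203). All 10 surface ectoderm markers were tested, had a mean below 0 and did not pass. Their log2 summed levels on arrays 1, 2 and 3 were 16.60, 16.58 and 16.79 in the double heterozygote. In the double null they were 16.30, 16.60 and 16.68, lower on arrays 1 and 3 and higher on array 2. The brightest was Krt18, a simple epithelial keratin, at -0.18, 0.11 and -0.029 (limma adjusted p = 0.795). Among 7 endoderm markers, 5 were tested and Sox17 fell by 0.53 (limma adjusted p = 0.0155), a call lost without array 2 or 3 (limma adjusted p = 0.0611 and 0.119). Of 10 blood and endothelium genes, 6 were tested, all 6 had a mean above 0 and none passed. Their median log2 ratio was 0.51, with array medians of 1.15, -0.026 and 0.16. The brightest of these was Ramp2 at 0.44, -0.031 and -0.012 (limma adjusted p = 0.486). The embryonic globins Hbb-bh1, at 1.43, -0.51 and 2.69, and Hba-x, at 1.14, -0.022 and 1.72, were higher in the double null pool on arrays 1 and 3 and not on array 2 (limma adjusted p = 0.257 and 0.154). They were named after their values were seen. The targeted genes did not pass either: Fgf3 had log2 ratios of -0.69, -0.064 and -0.69 (limma adjusted p = 0.121) and Fgf10 had 0.31, -0.11 and 0.23 (limma adjusted p = 0.385). Where their probes lie relative to the null alleles is not given in the sources used here. Between 26898 and 29624 spots of an array and channel were well above background.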

How the data were processed

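Per the labels, total RNA of 3 pools per genotype was amplified and hybridised to 3 two-colour arrays. Per the submitters' processing notes, spots were read with Agilent Feature Extraction 9.5.1.1. As deposited, a scanner file gives each spot's mean intensity and local background intensity, not normalised, and a log10 ratio with Cy5 as numerator. The log2 values of the authors' deposited series table equalled that ratio, once converted, within 2.01e-06, with column medians of -0.012, -0.0082 and -0.0031. The arrays came from 1 slide and 1 scan session per the file headers.

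Background was corrected with normexp (offset 50) and ratios normalised by loess (span 0.3, control weight 0) with limma 3.58.1 in R 4.3.3. Spots with outlier marks (143 to 175 an array) were left out, and spots of a probe averaged. Probes well above background in Cy3 or in Cy5 on all 3 arrays, with at least 2 values, were tested against 0 by lmFit and eBayes, with Benjamini-Hochberg adjustment over all 25506. SE is limma's moderated one. Their number limits the precision. Other genes were named through RefSeq records of GRCm38.p6, 22951 probes by accession, 6659 by symbol and 3109 by synonym, and 8455 kept their name. A list gene was read by its brightest tested probe.

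Members and lists were chosen with earlier results of these data known. By the naming rule all 38 members are accounted for, and a list gives its passing genes or else its brightest; Aldh1a2, Egr2, Evx1 and Evx2 were named after their values were seen. 1 further gene that matches the name pattern, and some list genes that are in the counts, are not reported here. The fit was tested on simulated ratios. Alternatives covered background, normalisation, filters, probe rules, priors, outlier spots, threshold and arrays left out.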

Additional observations from a re-analysis of the deposited data

How the results depend on the processing

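The count of Hox probes past the limma threshold was 0 and became 1 without background correction, without the filter on dim probes, with 1 probe per gene and with outlier spots kept, each time Hoxc5. It was 2 with an intensity trend in the prior or at an adjusted p under 0.10 (Hoxb1 and Hoxc5), 9 with median centring, and 0 to 1 with 1 array left out, the 1 being Hoxc5 without array 2. Hoxc5 had too few values to be tested without array 1 or array 3 or in the fits of separate channels, whose counts cover 15 probes. Fitting both channels separately with the array as a replicate block called 1 (Hoxb1), and without the block 0. The median log2 ratio of the Hox probes moved from -0.039 to 0.25 with median centring, whose all-probe median was 0.33, and ran from -0.084 to 0.0051 with 1 array left out. Median centring also turned Hoxa2 to 0.29, Hoxa9 to 0.22, the brighter Hoxb2 probe to 0.50, Hoxb3 to 0.28 and Hoxd4 to 0.36. Of all probes 379 passed, 81% of them higher. The count was 199 at offset 16 (90.5% higher), 0 with the scanner's processed signals and with the series table, 19476 with median centring (88.3%), 11 with loess of span 0.1 on probes above background (100%), 992 with the intensity trend (64.0%), 21 for intensities up to 15 (95.2%), 1077 at an adjusted p under 0.10 (65.1%), and 82 to 309 with 1 array left out, 82 without array 3 (95.1%) and 245 without array 2. With separate channels it was 873 with the replicate block (66.4%) and 190 without it (93.7%). At an unadjusted limma p under 0.05, 2256 lower and 2161 higher probes remained with processed signals and 2389 and 2080 with the series table. The causes were not tested. Each array compared same-numbered pools, so the ratio is already paired. With 3 arrays, dim members have only bounds.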
